A study of Mus musculus with 10 samples.

Results

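The 10 genes described here, *Cxcl12*, *Adipoq*, *Ebf1*, *Ebf3*, *Foxc1*, *Esm1*, *Gdpd2*, *Csf1*, *Cebpa* and *Apoe*, were taken as a named list of factors of the marrow stroma, and all 10 were found among the 29183 genes listed for both cell lineages (50508 genes are listed for the *Lepr* lineage). Single cells of mouse hind limbs were sorted into 96-well plates, and molecules were counted per gene and well by their UMIs (random tags added before amplification, so that copies made by PCR do not count). All mice were of the C57BL/6 strain and carried a Cre-dependent TdTomato reporter, which stays on in a cell and its progeny once Cre has acted. In *Grem1-TdT* mice the Cre was tamoxifen-inducible and driven by *Grem1*, and the mice, 5 to 6 weeks old at the start, ate tamoxifen chow for 2 weeks. In age-paired *Lepr-TdT* mice it was driven by *Lepr* without need of tamoxifen. *Grem1*-lineage cells came from excised articular cartilage (AC) and growth plate (GP) and were sorted as live TdTomato+ cells. *Lepr*-lineage cells came from crushed whole bones and were in addition negative for CD45, Ter119 and CD31. The tissue, the sort and the plates thus differed together with the lineage and cannot be told apart from it, and the labels do not say which of the tissues a *Grem1*-lineage plate was filled from. The plate was the replicate (8 *Grem1*-lineage and 2 *Lepr*-lineage plates). Cells of several mice may have been grouped on a plate, so the p-values below measure the spread between plates, which may be technical.

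Stromal cells of the bone marrow that carry the leptin receptor form a net around the marrow's blood vessels and feed the blood-forming cells. Their chemokine CXCL12 holds haematopoietic stem cells in the marrow by way of the receptor CXCR4, and the transcription factors EBF1, EBF3 and FOXC1 are known to keep these cells in that state. The same cells can give rise to fat and bone cells, and they carry adiponectin (*Adipoq*), a hormone best known from fat, before any lipid is stored. Chondrocytes, which make up AC and GP, instead build a matrix of type II collagen and aggrecan.

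Each of the 10 genes had at least 1 promoter window in RefSeq (GRCm38.p6), 14 in all, of which the 250 bases before the annotated start were read. Windows of *Cxcl12*, *Adipoq*, *Esm1* and *Gdpd2* (the first of 2), which had the largest fitted log2 fold changes between the lineages below, are shown here, 5′ to 3′, with matches to the searched motifs in capitals.
Cxcl12, chr6:117168285-117168534, + strand: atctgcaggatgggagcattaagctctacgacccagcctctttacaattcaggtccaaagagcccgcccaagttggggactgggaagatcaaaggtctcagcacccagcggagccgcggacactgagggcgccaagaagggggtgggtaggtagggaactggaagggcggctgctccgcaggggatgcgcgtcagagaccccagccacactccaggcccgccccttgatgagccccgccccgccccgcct
Adipoq, chr16:23146286-23146535, + strand: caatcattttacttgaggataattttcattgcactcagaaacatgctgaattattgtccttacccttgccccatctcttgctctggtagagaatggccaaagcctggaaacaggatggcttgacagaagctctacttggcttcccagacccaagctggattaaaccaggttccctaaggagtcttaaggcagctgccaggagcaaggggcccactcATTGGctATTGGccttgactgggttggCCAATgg
Esm1, chr13:113209409-113209658, + strand: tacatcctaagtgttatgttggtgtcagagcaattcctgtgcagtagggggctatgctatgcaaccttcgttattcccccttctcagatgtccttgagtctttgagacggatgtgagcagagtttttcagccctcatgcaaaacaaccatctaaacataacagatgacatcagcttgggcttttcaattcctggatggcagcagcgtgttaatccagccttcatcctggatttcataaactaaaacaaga
Gdpd2, chrX:100729597-100729846, + strand: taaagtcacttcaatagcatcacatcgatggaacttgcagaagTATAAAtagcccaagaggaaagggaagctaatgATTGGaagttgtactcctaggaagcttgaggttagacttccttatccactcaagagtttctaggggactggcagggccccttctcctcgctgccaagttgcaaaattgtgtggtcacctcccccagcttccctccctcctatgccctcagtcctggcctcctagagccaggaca

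Read on both strands, CCAAT was in the windows of 3 genes, *Adipoq*, *Foxc1* and *Gdpd2*, beside 33.8% of the 32851 windows of all genes. *Adipoq* had 3 copies, the first bases of which lie 34, 27 and 7 bases before the start. The TATA motif TATAAA was in windows of 3 genes, *Apoe*, *Cebpa* and *Gdpd2*, beside 12.4% of all windows. No window of the 10 genes held the palindromic EBF motif of TCCC and GGGA around any 2 bases (0.779% of all windows), the forkhead motif GTAAACA (3.17%) or the C/EBP motif TTGCGCAA (0.164%). These are matches of letters only.

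Wells with fewer than 350 detected genes, counted over the genes listed for their own lineage, were removed. This left 160 of 162 *Lepr*-lineage and 684 of 768 *Grem1*-lineage wells, with 145484 to 158749 and 133289 to 179071 UMIs per plate over those genes. On the shared genes, which are all that is listed for the *Grem1* lineage, the *Lepr*-lineage plates held 59981 to 64310 UMIs. The median per cell was 1222 UMIs in the *Lepr* lineage, of which 505 fell on the shared genes, and 1472.5 UMIs in the *Grem1* lineage. All plates used the same 96 well barcodes, 70 of which occurred on every plate, so a shared barcode marks a well position and not a shared cell. *Cytl1*, a chondrocyte gene, had a UMI in all 684 *Grem1*-lineage wells, and *Lepr* was detected in 53 of 160 *Lepr*-lineage cells (33.1%, 95% Clopper-Pearson interval 25.9 to 41.0, counting error only). Despite the sort for CD45- cells, the neutrophil genes *S100a8* and *Camp* had a UMI in 160 and 158 of the 160 *Lepr*-lineage cells. The 8 haematopoietic genes listed for both lineages took 2.03% and 2.51% of the shared-gene UMIs of the *Lepr*-lineage plates and 0 to 0.354% in the *Grem1*-lineage plates, the T cell gene *Cd3e* had no UMI in *Lepr*-lineage cells, and the part of blood cell transcripts in the levels below was not tested. A group of 8 *Lepr*-lineage cells with more than 5000 UMIs, the deepest with 21187, held 29.2% of all UMIs of that lineage.

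The first comparison asked which of the 10 genes separate the marrow lineage from the cartilage lineage. Counts were summed per plate, scaled to CPM (counts for the same total on every plate, with edgeR's TMM factors) and tested over 2944 genes by quasi-likelihood in edgeR, with p-values adjusted after Benjamini and Hochberg. All 10 genes had a higher mean level in the *Lepr* lineage and 9 of 10 passed the test (adjusted p under 0.05), where 12.2% of all genes tested were called higher in the *Lepr* lineage. For the same 9 genes both *Lepr*-lineage plates lay above all 8 *Grem1*-lineage plates, which held for 17.4% of all genes tested. The median log2 fold change of the 10 genes was 4.40, and that of all genes tested was -0.11. Because the 10 genes were chosen with earlier results of these data known, the values of all genes are given for scale and are no test of the list. In such sums, fewer cells with a transcript and less of it per cell cannot be told apart.

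**Figure D1:**
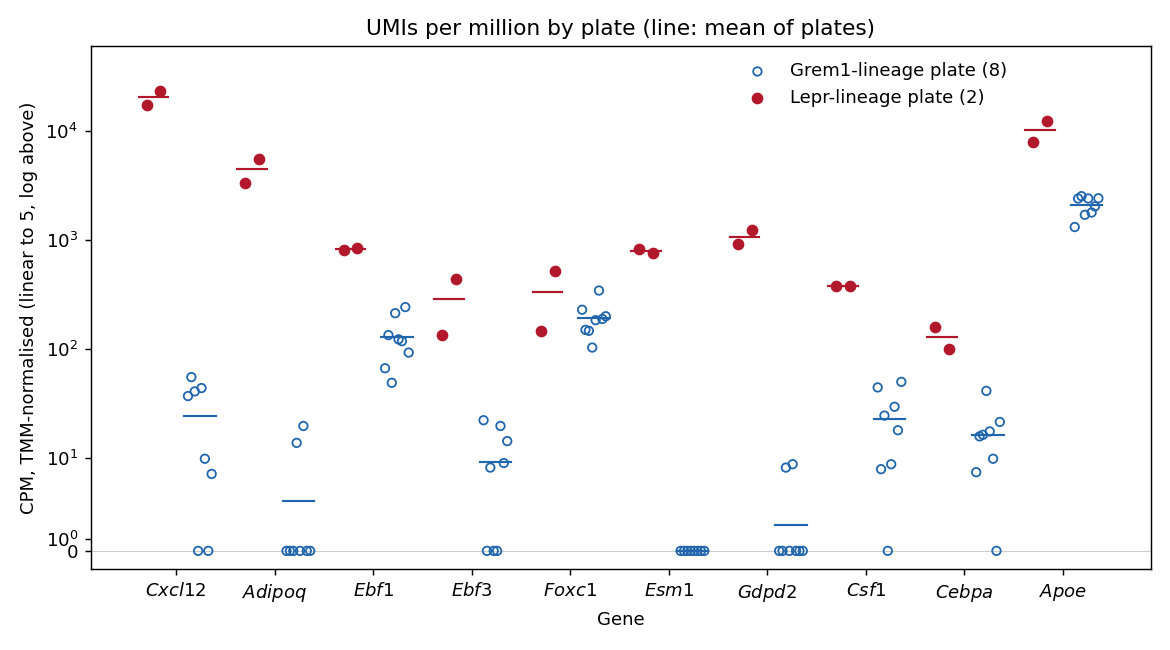
Level of the 10 genes on each plate, in TMM-normalised CPM on an axis that is linear to 5 and logarithmic above, with filled points for the 2 *Lepr*-lineage plates, open points for the 8 *Grem1*-lineage plates and a line at each mean. The groups are apart for every gene but *Foxc1*, whose lower *Lepr*-lineage plate (146 CPM) lies under 6 of the 8 *Grem1*-lineage plates.

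*Cxcl12*, *Adipoq*, *Esm1* and *Gdpd2* were abundant or regular transcripts of the *Lepr* lineage and had between 0 and 24 UMIs in the whole *Grem1* lineage. *Cxcl12* (chromosome 6, 117168535 to 117181367, plus strand of GRCm38) was at 17366 and 23089 CPM on the *Lepr*-lineage plates. On *Grem1*-lineage plates 1, 2, 4, 5, 6, 7, 8 and 9 it was at 36.7, 54.8, 40.5, 0, 43.4, 9.75, 0 and 7.08 CPM. The highest of these was thus far under the lower *Lepr*-lineage plate, and the log2 fold change was 9.66 (SE 0.53, edgeR adjusted p = 3.29e-09). *Adipoq* (chromosome 16, 23146536 to 23158028, plus strand), the adiponectin gene, was at 3293 and 5541 CPM. Only plates 5 and 7 of the *Grem1* lineage held it, at 13.6 and 19.5 CPM, and the log2 fold change was 9.77 (SE 0.46, edgeR adjusted p = 7.28e-10).

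*Esm1* (chromosome 13, 113209659 to 113218098, plus strand) encodes endocan, a secreted proteoglycan better known from endothelial cells. It was at 823 and 757 CPM in the *Lepr* lineage (116 UMIs), while the 1182143 *Grem1*-lineage UMIs held none. Over the pooled plates without TMM it was at least 294-fold higher in the *Lepr* lineage by the exact 95% limit (counting error only), and 368-fold higher against a floor of 3 counts over the whole *Grem1* lineage (2.54 CPM). Of 18 endothelial markers, which had 131 UMIs in all in the 160 *Lepr*-lineage cells, 5 had none (*Cdh5*, *Kdr*, *Flt1*, *Cldn5* and *Egfl7*). The 10 listed for both lineages took 0.00466% and 0.0200% of the UMIs on the *Lepr*-lineage plates and 0.00147% to 0.00525% on the *Grem1*-lineage plates, and their part in the level of *Esm1* was not tested. *Pecam1*, the gene of the CD31 antigen used in the sort, had 35 UMIs in 17 cells, and 14 of these UMIs were in 1 cell. *Gdpd2* (chromosome X, 100729873 to 100738895, plus strand), a glycerophosphodiester phosphodiesterase, was at 916 and 1220 CPM. Of its UMIs 156 were from *Lepr*-lineage and 2 from *Grem1*-lineage cells, a ratio of CPM over the pooled plates of 742 (exact 95% interval 202 to 6180, counting error only). Its log2 fold change was 8.44 (SE 0.43, edgeR adjusted p = 1.80e-09).

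The transcription factor genes did not behave as one group. *Ebf1* (chromosome 11, 44617317 to 45008091, plus strand), which is also a B cell factor, was at 797 and 842 CPM in the *Lepr* lineage and at 48.5 to 240.5 CPM on the *Grem1*-lineage plates, all of which held it (mean 129 ± 66.8 CPM, SD, n = 8 plates). The log2 fold change of 2.66 (SE 0.37, edgeR adjusted p = 6.96e-05) left a clear gap between the groups. In *Lepr*-lineage cells the B cell genes *Cd79a*, *Cd79b* and *Ighm* had 1, 6 and 26 UMIs, beside 120 UMIs of *Ebf1*, and their part in its level was not tested. *Ebf3* (chromosome 7, 137193673 to 137314445, minus strand), its paralogue, was at 133 and 435 CPM in the *Lepr* lineage, plates that differed 3.28-fold, and at 9.08 ± 8.86 CPM in the *Grem1* lineage (SD, n = 8 plates), 3 plates of which had none. The log2 fold change was 4.82 (SE 0.65, edgeR adjusted p = 5.60e-05), and 3.69 without *Lepr*-lineage plate 2.

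*Foxc1* (chromosome 13, 31806633 to 31812476, plus strand), a forkhead factor, was at 146 and 519 CPM on the *Lepr*-lineage plates, a 3.55-fold gap. On *Grem1*-lineage plates 1, 2, 4, 5, 6, 7, 8 and 9 it was at 227, 149, 146, 102, 182, 341, 187 and 198 CPM. The groups overlapped, 6 of the 8 *Grem1*-lineage plates being above the lower *Lepr*-lineage plate, and the log2 fold change of 0.80 (SE 0.43, edgeR adjusted p = 0.169) did not pass the test. It turned to -0.43 (edgeR adjusted p = 0.625) without *Lepr*-lineage plate 2, and passed without *Lepr*-lineage plate 1 (1.35, edgeR adjusted p = 0.0393) and without the cells of more than 5000 UMIs (1.26, edgeR adjusted p = 0.0268). *Cebpa* (chromosome 7, 35119293 to 35121928, plus strand), a factor of fat and myeloid cells, was sparse in both, with 19 *Lepr*-lineage and 17 *Grem1*-lineage UMIs. It was at 159 and 98.2 CPM against 0 to 40.9 CPM. The log2 fold change was 2.88 (SE 0.63, edgeR adjusted p = 0.00262), and the call was lost without *Lepr*-lineage plate 1 (2.40, edgeR adjusted p = 0.0873). The myeloid gene *Cebpe* had 11 UMIs in *Lepr*-lineage cells.

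The remaining pair encode secreted proteins. *Csf1* (chromosome 3, 107741048 to 107760469, minus strand), the growth factor of macrophages and osteoclasts, was at 372 and 379 CPM in the *Lepr* lineage and at 0 to 49.5 CPM in the *Grem1* lineage, with a log2 fold change of 3.98 (SE 0.52, edgeR adjusted p = 3.90e-05). *Apoe* (chromosome 7, 19696109 to 19699188, minus strand), the apolipoprotein that carries lipids between cells, was at 7926 and 12330 CPM in the *Lepr* lineage. Of the 10 genes it was also the one with the most UMIs in the *Grem1* lineage, 2064 in all, at 1306, 2386, 2508, 1691, 2389, 1775, 2022 and 2399 CPM on plates 1, 2, 4, 5, 6, 7, 8 and 9. These were all below both *Lepr*-lineage plates (log2 fold change 2.30, SE 0.27, edgeR adjusted p = 1.31e-05). Both genes are known from macrophages. Of 15 macrophage genes, *Adgre1*, *C1qa*, *C1qc* and *Hmox1* had no UMI in the *Lepr*-lineage cells, while the list held 949 UMIs. Of these, 413 were of *Vcam1* in 99 cells, a gene also counted with the marrow stroma genes below. Another 202 were of *Fcer1g* in 65 cells, 175 of *Tyrobp* in 53 and 89 of *Cd14* in 34. The 10 macrophage genes listed for both lineages, *Vcam1* not among them, took 0.133% and 0.415% of the shared-gene UMIs on the *Lepr*-lineage plates. On the *Grem1*-lineage plates they took 0.0231% to 0.108%, and their part in the levels of *Csf1* and *Apoe* was not tested. Exons of *Ebf3*, *Gdpd2* and *Cebpa* overlap an annotated gene on the other strand (*Gm45278*, *Gm14866* and *Gm45091*), and since the strand setting of the count is not given, their reads cannot be told apart from that gene's.

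Shares of cells depend on depth, so every cell was set to 272 UMIs over the shared genes by the exact expectation of drawing that many, which left out 16 *Lepr*-lineage cells and no *Grem1*-lineage well. At that depth *Cxcl12* would be seen in 96.7% of *Lepr*-lineage and 0.583% of *Grem1*-lineage cells, and *Adipoq* in 75.1% and 0.0806%. For *Apoe* the shares were 95.1% and 30.9% (99.4% and 74.3% with all UMIs), and for *Ebf1* 26.6% and 3.14%. *Foxc1*, which with all UMIs was in 32 of 160 *Lepr*-lineage cells and 136 of 684 *Grem1*-lineage wells, was at 12.7% and 4.01%. Of its *Lepr*-lineage plates, plate 1 (6.72%) was then close to the highest *Grem1*-lineage plate (6.57%) and plate 2 (18.2%) was well above it. This view gives each cell the same weight, whereas the CPM of a plate weigh its deep cells most.

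**Figure D2:**
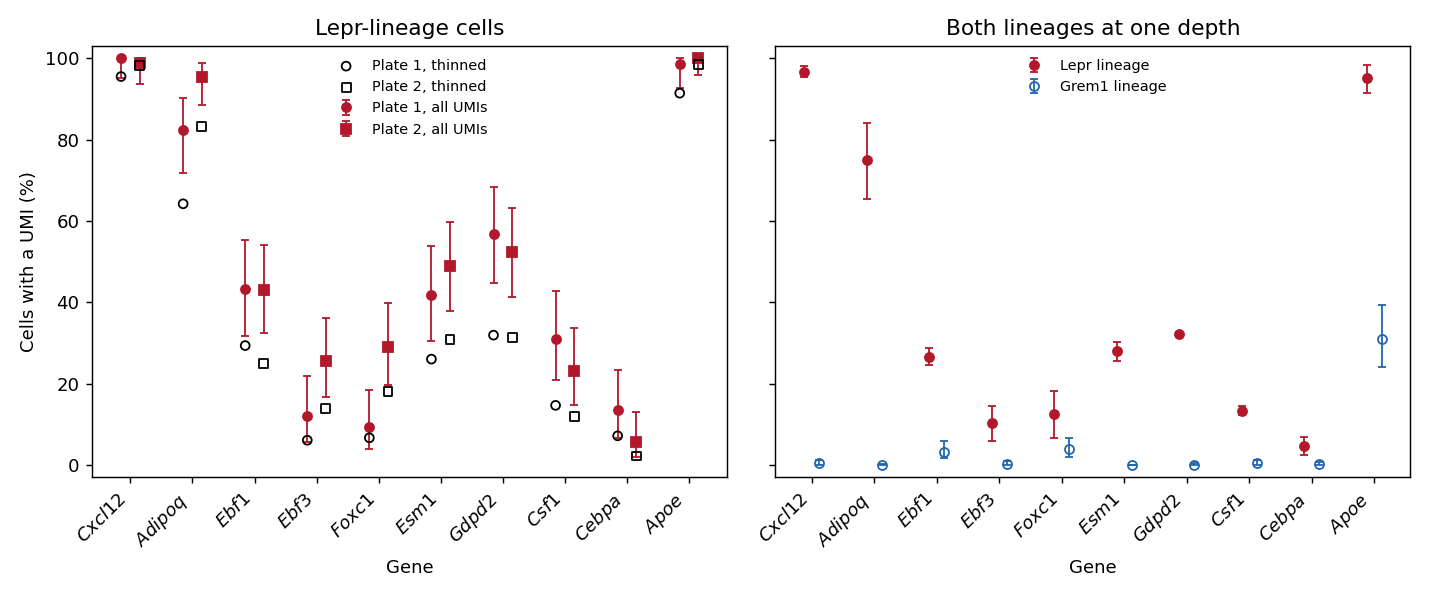
Percent of cells with at least 1 UMI of each gene. On the left are the 2 *Lepr*-lineage plates with all UMIs (filled, with 95% Clopper-Pearson intervals) and thinned to 673 UMIs per cell (open), and on the right are both lineages at 272 shared-gene UMIs per cell with bars from the lowest to the highest plate. *Foxc1*, *Ebf3* and *Adipoq* are higher on *Lepr*-lineage plate 2 at either depth, but only the intervals of *Foxc1* do not overlap. *Apoe* is the only gene over 10% in the *Grem1* lineage at equal depth.

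Genes with related roles were counted in lists, which are a description. The lists were written with earlier results of these data known, so the shares of all genes beside them are no test of a list. Of 13 tested genes of the marrow stroma list, 11 were higher in the *Lepr* lineage and none lower (12.2% and 16.8% of all genes), with *Dpep1* (1246 ± 241 against 3.06 ± 6.29 CPM, SD, n = 2 and 8 plates), *Fbln5* (965 ± 182 against 8.36 ± 15.5 CPM) and *Ccl2* (578 ± 630 against 4.87 ± 9.37 CPM) having the largest log2 fold changes of 8.26, 6.73 and 6.58. *Ccl2*, a monocyte chemokine, was uneven, at 133 and 1024 CPM on the *Lepr*-lineage plates. Of the 5 tested genes around the CXCL12 axis, *Ccl2* and *Cxcl14* were higher and *Ackr3*, the scavenging receptor for CXCL12, and *Cxcl1* were lower in the *Lepr* lineage. *Ackr3* had 2 UMIs in *Lepr*-lineage cells and 173 in 116 *Grem1*-lineage wells (log2 fold change -3.59, SE 0.80, edgeR adjusted p = 0.00295). *Cxcr4*, the signalling receptor, had 12 of the 124291 shared-gene UMIs of the *Lepr* lineage and 29 of the 1182143 of the *Grem1* lineage. Apart from the members, no gene of the EBF, FOX and C/EBP list was higher in the *Lepr* lineage, and 4 of 8 tested were lower, among them *Foxo1* (40.6 ± 17.7 against 300.2 ± 73.9 CPM), *Foxo3* and the stress factor gene *Ddit3*.

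Of the 28 adipogenic genes 12 were listed for both lineages and 5 were tested. Of these 0 were higher in the *Lepr* lineage and 2 were lower, *Cebpd* (397 ± 73.3 against 848 ± 237 CPM) and *Adipor1* (273 ± 29.9 against 467 ± 77.4 CPM). In the *Lepr*-lineage cells, where 28 genes of that list could be read, *Plin1*, *Cidec*, *Cidea*, *Retn*, *Lep*, *Slc2a4*, *Gpd1* and *Zfp423* had no UMI, while *Adipoq* had 643. The other genes of the list had UMIs. *Lpl*, a lipase of fat cells, had one in 124 of 160 cells, *Cebpb* in 61, *Mgst1* in 60, *Cebpd* in 40 and *Adipor1* in 26. *Pparg*, the master factor of fat cells, had one in 11. In the lipid transport list *Apod* was higher (log2 fold change 2.58) and *Clu* lower (-1.99) in the *Lepr* lineage, and *Apoa1*, *Apob*, *Apoc1*, *Apoc2* and *Lcat* had no UMI in *Lepr*-lineage cells. All 15 tested chondrocyte genes were lower in the *Lepr* lineage, with *Col9a1* at 0 and 3586 ± 735 CPM, *3110079O15Rik* at 6.64 ± 9.39 and 10352 ± 2049 CPM and *Cnmd* at 19.9 ± 28.2 and 19000 ± 2586 CPM. In the other lists *Alpl* (osteoblast) and *Cspg4* (mural) were lower, and *Camp* and *Coro1a* (haematopoietic) and *Fcer1g* (macrophage) were higher, while none of the endothelial genes had counts enough to be tested.

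Within the *Lepr* lineage the 10 genes ran from transcripts seen in nearly every cell to transcripts seen in few. *Cxcl12* and *Apoe* each had a UMI in 159 of 160 cells. *Cxcl12* had a median of 17 UMIs per cell with quartiles of 9 and 24 and a maximum of 57, and *Apoe* had a median of 8 with quartiles of 5 and 11.25 and a maximum of 40. *Adipoq* was found in 143 cells (89.4%, interval 83.5 to 93.7) with a median of 3 and a maximum of 20 UMIs. Of the sparser genes *Gdpd2* was found in 87 cells, *Esm1* in 73, *Ebf1* in 69, *Csf1* in 43, *Foxc1* in 32, *Ebf3* in 31 and *Cebpa* in 15, none with more than 6 UMIs in a cell. These shares follow both the level and the depth, and do not rank the genes.

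Between the *Lepr*-lineage plates the shares of *Foxc1* were the ones whose intervals did not overlap. *Ebf1* was found in 43.2% and 43.0% of the cells of plates 1 and 2, *Gdpd2* in 56.8% and 52.3% *Esm1* in 41.9% and 48.8%, *Csf1* in 31.1% and 23.3% and *Cebpa* in 13.5% and 5.81%, each with overlapping intervals. The intervals of *Adipoq*, found in 82.4% (71.8 to 90.3) and 95.3% (88.5 to 98.7), and of *Ebf3*, found in 12.2% (5.71 to 21.8) and 25.6% (16.8 to 36.1), overlapped at their ends. *Foxc1* was found in 9.46% (3.89 to 18.5) and 29.1% (19.8 to 39.9). Plate 2 was the shallower one, with a median of 1130 against 1390 UMIs per cell. When each cell was thinned to 673 UMIs, with 16 cells left out, the shares on plates 1 and 2 were 64.2% and 83.3% for *Adipoq*, 6.14% and 14.0% for *Ebf3*, and 6.74% and 18.0% for *Foxc1*. With 2 plates the difference between them cannot be tested over replicates.

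The variance of the UMI count over its mean (Fano factor), which is 1 for counting noise alone, was 7.55 for *Cxcl12*, 4.39 for *Apoe* and 2.90 for *Adipoq*, and 1.25 to 1.75 for the other 7 genes. After thinning it was 2.79, 1.86 and 1.87 for these 3 genes and 1.04 to 1.32 for the others. For *Cxcl12* the thinned value was 3.57 on plate 1 and 2.10 on plate 2.

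A set of cells had low *Cxcl12*. Below 50 *Cxcl12* UMIs per 10000, a limit chosen after the values were seen, there were 23 cells, 18 on plate 1 and 5 on plate 2. They were deeper than the other 137 cells (median 2224 against 1193 UMIs). Over all genes and without TMM, *Cxcl12* was at 2175 CPM in them against 13411 CPM in the others, which is what chose them, and the other 9 genes were lower in them too. *Adipoq* was at 409 against 2951 and *Apoe* at 1816 against 6343 CPM. *Gdpd2* was at 79.8 against 725, *Ebf1* at 79.8 against 549, and *Foxc1* had 2 UMIs in the 23 cells and 46 in the 137. The stromal list took 1.46% of their UMIs against 4.67%, and the haematopoietic list 9.89% against 4.19%. These sums weigh deep cells most: 5 of the 23 had more than 5000 UMIs and held 67.7% of their UMIs, and 3 cells held 3013 of 4535 *S100a8* UMIs. Without cells of more than 5000 UMIs, a comparison added after seeing the data, 18 and 134 cells were left. The other 9 genes were again lower in the 18, with *Adipoq* at 617 against 3129 CPM and *Apoe* at 2654 against 6597 CPM. *Ebf3*, *Foxc1*, *Gdpd2*, *Csf1* and *Cebpa* each had only 1 UMI in the 18 (30.9 CPM), so their direction there is limited by counts. The stromal and haematopoietic shares were 2.81% against 4.82% and 5.79% against 4.27%. *Col1a1* and *Bglap*, which mark osteoblasts, had 365 and 94 UMIs in the 23 cells, but 334 and 87 of these were in the top 3 cells. *Ibsp*, of the same osteoblast list, went the other way, at 2365 CPM in the 23 cells against 8696 CPM in the 137. The whole osteoblast list took 1.19% of the UMIs against 1.08%. Without cells of more than 5000 UMIs it took 3.20% in the 18 cells against 1.14% in the 134. On plate 1 this was 3.41% against 1.19%, and on plate 2 it was 1.10% against 1.09%. *Lepr* was seen in 5 of the 23 and in 48 of the 137 cells. On plate 1 alone all 9 were lower, with *Adipoq* at 353 against 2536 CPM. On plate 2, with 5 such cells, 8 of the 9 were lower, with *Adipoq* at 544 against 3265 CPM, and *Cebpa* was at 68.0 against 43.1 CPM. The 8 cells over 5000 UMIs had *Cxcl12* at 3291 CPM against 12352 CPM in the other 152 cells, and their haematopoietic share was 9.88% against 4.50%. Doublets were not called in these plates, and the part of doublets or of free RNA in the deep cells was not tested.

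**Figure D3:**
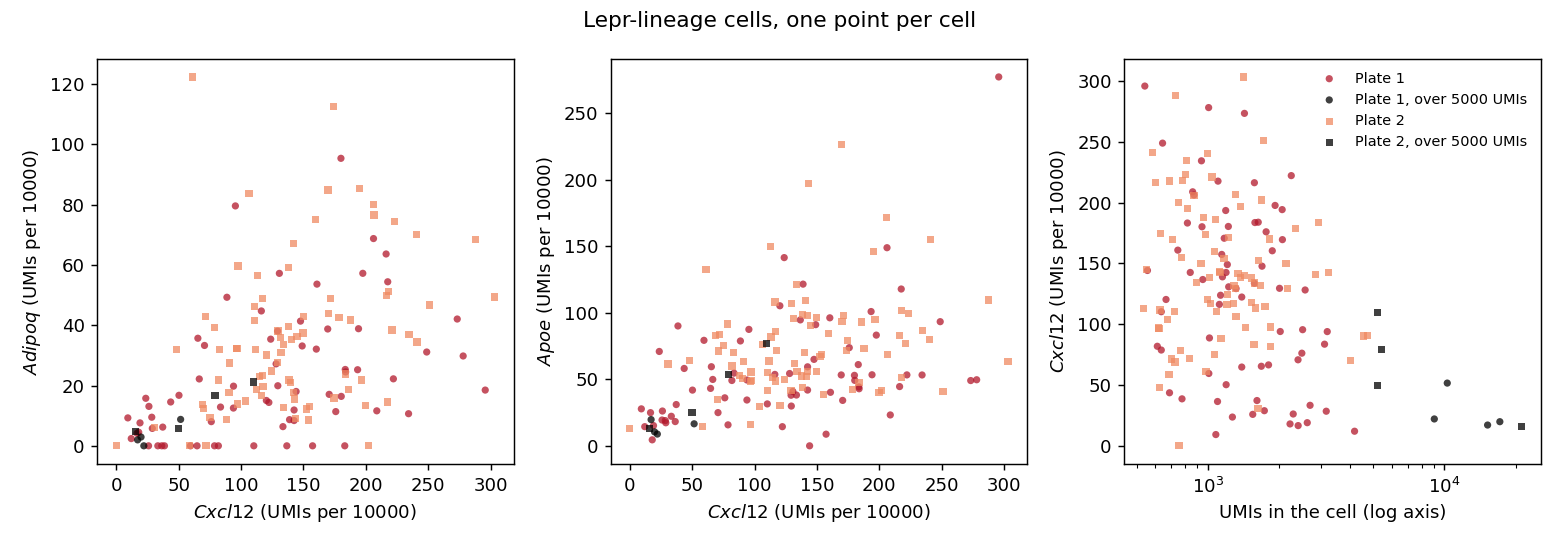
*Lepr*-lineage cells, 1 point per cell, with *Adipoq* (left) and *Apoe* (middle) against *Cxcl12* in UMIs per 10000, and *Cxcl12* against the UMIs of the cell on a log axis (right). Plates 1 and 2 have different symbols and cells over 5000 UMIs are black, and the cells with most *Cxcl12* are all among those of up to 5000 UMIs.

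Over the 160 cells, *Cxcl12*, *Adipoq* and *Apoe* went together. On log2(UMIs per 10000 + 1), Pearson's r was 0.52 for *Cxcl12* and *Adipoq*, 0.50 for *Cxcl12* and *Apoe* and 0.45 for *Adipoq* and *Apoe*, and after thinning it was 0.43, 0.48 and 0.37. On plates 1 and 2 alone the values were 0.48 and 0.52, 0.47 and 0.50, and 0.35 and 0.45. Of the other 42 pairs the highest r was 0.30 (*Cxcl12* and *Gdpd2*) and the lowest -0.12 (*Foxc1* and *Cebpa*). The cells share libraries and a denominator, and *Cxcl12* and *Apoe* ran against depth (r of -0.36 and -0.34 with log2 UMIs), so these are descriptions.

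Among the 1018 genes with a UMI in at least 20% of the cells, those most like *Cxcl12* were *Serping1* (r = 0.64), *Gpx3* (0.60), *Tmem176b* (0.49), *B2m* (0.47) and *Igfbp4* (0.40), over 160 cells. *Serping1* encodes the inhibitor of complement C1, *Gpx3* a secreted glutathione peroxidase and *B2m* the light chain of class I major histocompatibility molecules. *Serping1* and *Gpx3* were also among the 5 most like *Adipoq* (0.39 and 0.38) and *Apoe* (0.45 and 0.47). The others of *Adipoq* were *Tmem176b* (0.39), *H2-K1* (0.36) and *Ifitm3* (0.35), and those of *Apoe* were *B2m* (0.44), *Igfbp4* (0.35) and *Ifitm3* (0.34). Several of these were high on plate 1 only. With *Adipoq* the r on plates 1 and 2 was 0.45 and 0.12 for *Tmem176b*, 0.52 and 0.13 for *H2-K1* and 0.41 and 0.05 for *Ifitm3*, and with *Apoe* it was 0.39 and 0.03 for *Ifitm3*. The r of *Serping1* with *Cxcl12* was 0.70 on plate 1, 0.54 on plate 2 and 0.53 after thinning.

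Joint detection was then asked of the 45 pairs. A *Lepr*-lineage cell held a mean of 5.07 ± 1.54 (SD, n = 160 cells) of the 10 genes, from 2 in 6 cells to all 10 in 1 cell. The number went with depth, from a median of 765.5 UMIs in cells with 2 genes to 1844 UMIs in the 19 cells with 7. Its variance was 2.38, where 1.45 would be given by independent genes with the same shares. After thinning it was 1.71 against 1.25, with 2.09 against 1.28 on plate 1 and 1.30 against 1.18 on plate 2. The excess left at equal depth was larger on plate 1, the plate with 18 of the 23 cells of low *Cxcl12*.

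The expected number was taken from the shares on each plate and summed. Of 42 pairs with at least 5 cells expected, 37 were seen together more often than expected, with a median ratio of observed to expected of 1.01 (0.925 to 1.57). The ratio cannot move far for *Cxcl12* and *Apoe*, which nearly every cell holds. Most of their pairs lay just above 1 and are counted among these 37 and among those above 1 after thinning. Among the sparser genes *Gdpd2* and *Cebpa* were together in 13 cells where 8.29 were expected (1.57), *Ebf1* and *Cebpa* in 10 where 6.48 were expected, *Ebf3* and *Esm1* in 20 where 14.5 were expected (1.38), *Esm1* and *Csf1* in 26 where 19.4 were expected (1.34), and *Gdpd2* and *Csf1* in 30 where 23.5 were expected (1.28). After thinning 31 pairs had at least 5 cells expected and 28 had a ratio above 1, with a median of 1.03 (0.850 to 1.32). *Gdpd2* and *Csf1* were at 1.32, *Esm1* and *Csf1* at 1.30 and *Foxc1* and *Gdpd2* at 1.24. The log odds ratio was above 0 on both plates for 12 of the 31 pairs and below 0 on both for 7. All 7 were pairs of *Cxcl12* or *Apoe*, and all but *Cxcl12* and *Foxc1* had a thinned ratio above 1. For those above 1, the sign below 0 on both plates comes from a constant added to each count, so it shows no avoidance. *Foxc1* and *Esm1* were together less often than expected, in 14 cells against 15.1, and at 0.850 after thinning, with log odds ratios of 0.41 and -0.38 on plates 1 and 2. *Ebf1* and *Foxc1* were in 14 cells together where 13.8 were expected.

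**Figure D4:**
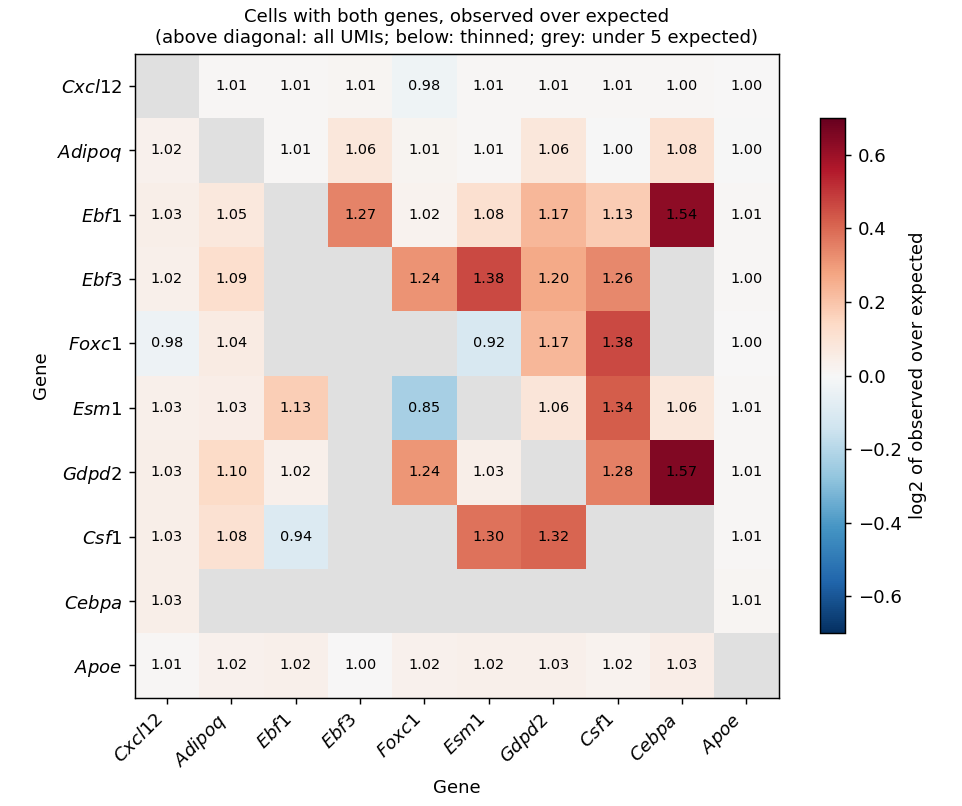
Cells with both genes of a pair over the number expected from their shares on each plate, as printed ratios with colour on a log2 scale, with all UMIs above the diagonal and thinned cells below it. Pairs with fewer than 5 expected cells and the diagonal are grey, and the printed values run from 0.85 to 1.57, with *Cxcl12* and *Apoe* pairs near 1.

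The *Grem1*-lineage wells that hold any of these genes were then listed. Of 684 wells, 112 held none of the 10, 385 held 1, 153 held 2, 31 held 3 and 3 held 4. *Apoe* was in 508 wells (74.3%, interval 70.8 to 77.5), *Foxc1* in 136 (19.9%, 17.0 to 23.1) and *Ebf1* in 88 (12.9%, 10.4 to 15.6), and each was found on all 8 plates. *Csf1* was in 18 wells, *Cxcl12* in 17, *Cebpa* in 16, *Ebf3* in 8, *Adipoq* in 3, *Gdpd2* in 2 and *Esm1* in 0 of 684 wells, which allows a share of wells with a UMI of up to 0.439% at this depth (exact upper limit 0.538%). For comparison, the chondrocyte gene *Col2a1*, in all 684 *Grem1*-lineage wells, had a UMI in 5 of 160 *Lepr*-lineage cells. *Cytl1*, also in all 684 wells, had one in 60 of the 160 cells, with 360 UMIs of which 151 were in 1 cell.

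**Figure D5:**
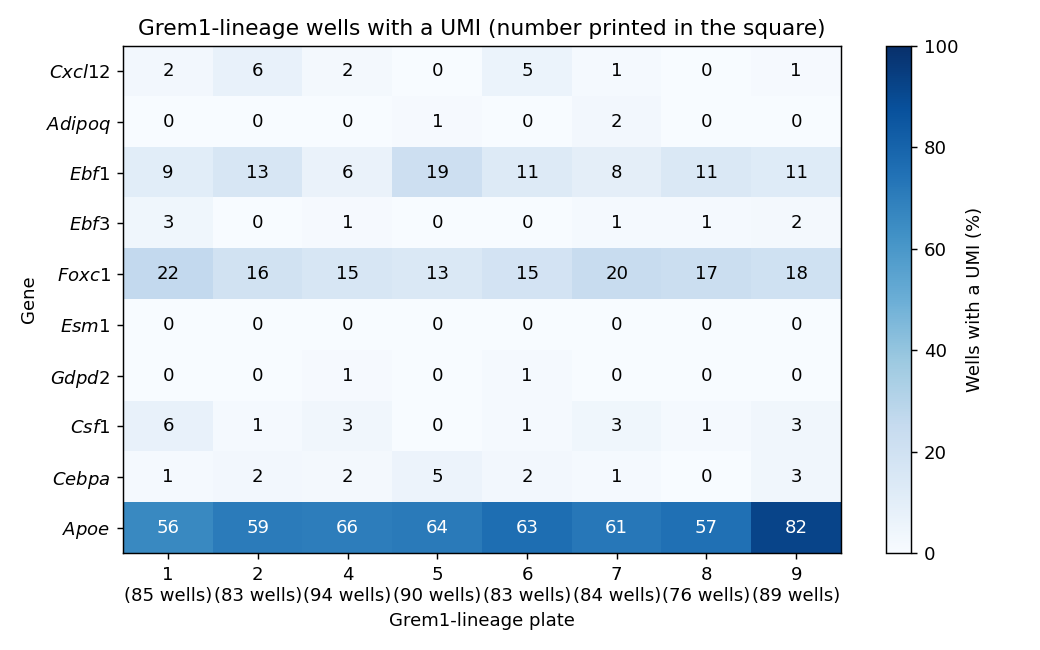
Number of *Grem1*-lineage wells with at least 1 UMI of each gene (rows) on each plate (columns), with shading for the percent of the plate's wells that passed the gene minimum. *Apoe* is in 56 to 82 wells of every plate, *Foxc1* in 13 to 22 and *Ebf1* in 6 to 19, while *Cxcl12* is on 6 of the 8 plates and *Adipoq* and *Gdpd2* on 2 each.

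*Apoe* was uneven among the *Grem1*-lineage wells. Its median was 1 UMI per well and its 90th percentile 7, but 55 wells had 10 or more and the highest had 47. The highest *Lepr*-lineage cell had 40. These are raw counts at unlike depths (medians of 1472.5 and 505 shared-gene UMIs), so they do not rank the lineages. The Fano factor of *Apoe* in the *Grem1*-lineage wells was 8.89. That of *Ebf1* was 2.15 (at most 9 UMIs in a well) and that of *Foxc1* 1.64 (at most 8). *Cxcl12*, in contrast, was at 1 UMI in 14 of its 17 wells. It had 4 UMIs in 1 well each of plates 1 and 4 and 2 UMIs in 1 well of plate 2. The first of these had 670 UMIs in all, 10.7% of them from chondrocyte genes, and also held *Ebf1* and *Apoe*. The second had 1554 UMIs, 24 of them *Apoe*. A well of plate 5 with 2 *Adipoq* UMIs had 31 of *Col1a1*, an osteoblast collagen, and a chondrocyte share of 2.86%.

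In all, 21 wells held *Cxcl12*, *Adipoq* or *Gdpd2*, and 1 well held 2 of these. All 21 held *Cytl1*, but so did all of the other 663 wells, so this does not set them apart. Their median chondrocyte share was 18.05% (2.86 to 43.8) against 20.1% (1.82 to 41.3) in the other 663 wells. Of these 21 wells none held more than 4 of the 10 genes, whereas the median *Lepr*-lineage cell held 5.

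Whether wells with a *Cxcl12* UMI differed in their other transcripts was tested on the 6 plates with both kinds of well, with an exact two-sided sign-flip permutation test over plates, whose smallest p is 0.0312, and Benjamini-Hochberg adjustment over 4 measures. The chondrocyte share was 21.4 ± 6.62% in wells with and 19.9 ± 1.58% in wells without *Cxcl12* (SD, n = 6 plates, exact permutation p = 0.594, higher on 3 of 6). The osteoblast share was 0.330 ± 0.261% and 1.08 ± 1.26% (exact permutation p = 0.219), the haematopoietic share 0.00999 ± 0.0245% and 0.0469 ± 0.0674% (exact permutation p = 0.0625, lower on 5 of 6), and the median depth 1611 ± 392 and 1383 ± 142 UMIs. None passed after adjustment (0.25 to 0.594). A deeper well is likelier to show a UMI of any gene, so depth is tied to such a split and is given as a description. Wells with at least 2 of the 10 genes were deeper by 342 UMIs, on 8 of 8 plates.

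The same measures were taken for wells with *Ebf1*, *Foxc1* and *Apoe*, a choice made after seeing the data, with adjustment over 12 tests. The depth of wells with *Foxc1* was 1875 ± 308 against 1397 ± 134 UMIs (SD, n = 8 plates, higher on 8 of 8), which the split by detection itself favours. Wells with *Apoe* had a lower chondrocyte share, 19.6 ± 1.33% against 21.6 ± 2.08%, on 8 of 8 plates (exact permutation p = 0.00781, adjusted 0.0469). This p is the smallest that 8 plates allow. The adjusted value passes only because the depth of *Foxc1* wells, which the split favours, ties with it in the same 12 tests. It is thus no firm result. The depth of wells with *Apoe* was 1504 ± 142 against 1352 ± 194 UMIs (higher on 7 of 8). The other 9 tests, among them all 4 on *Ebf1* wells, had adjusted p-values from 0.258 to 0.969. *Foxc1* and *Apoe* were together in 97 wells where 101 were expected, and *Ebf1* and *Foxc1* in 22 where 17.1 were expected, above expectation on 4 of 8 plates each.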

How the data were processed

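UMI counts of single cells on 8 *Grem1*-lineage and 2 *Lepr*-lineage plates were analysed. The deposited values are whole-number counts per gene and cell without normalisation, and per the labels the authors' processing involved mm10, UMI-tools, STAR, featureCounts, SAMtools and Seurat. Cell Ranger is named in the paper's methods, and the versions of the counting tools and the strand setting are not given in the sources used here. The *Grem1*-lineage counts end in an incomplete row (1), which was left out. In order of name, every list gene up to *Gas6* has a row there and every one from *Gpd1* on has none. Genes without a row were not analysed in that lineage, and its UMI totals cover only the genes with a row. The lists were thus cut by name, with 18 of 50 marrow stroma genes listed for both lineages. Plates were assigned to lineages from the sample labels.

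The minimum of 350 detected genes per well was set on each lineage's own genes, 50508 for *Lepr* and 29183 for *Grem1*. With fewer genes able to count, it was stricter for *Grem1*-lineage wells. When it was set on the shared genes in both lineages, 9 of the 10 genes passed the edgeR test, the same number as in the main test. Counts were summed per plate over the 29183 shared genes and tested in R 4.3.3 with edgeR 4.0.16 (TMM, filterByExpr, quasi-likelihood F test, Benjamini-Hochberg adjustment at 0.05), a script tested on simulated data. DESeq2 1.42.0 was an alternative. CPM are TMM-normalised for plates, and without TMM for sets of cells. Standard errors are approximate, being the log2 fold change over the square root of F. Thinned shares are exact expectations for each cell (hypergeometric, SciPy 1.17.1), except for thinned correlations, which rest on 1 random draw. Intervals are 95% Clopper-Pearson or exact and cover counting error only. At a median of 1222 UMIs per *Lepr*-lineage cell, single cells resolve *Cxcl12*, *Apoe* and *Adipoq*, and the other genes are better measured by their plate sums. Coordinates are from GENCODE on GRCm38.

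The 10 genes and all lists were chosen with earlier results of these data known. Named in addition were, per list, up to 3 genes per direction with the largest change among those called with at least 50 CPM in one lineage, the 5 genes with the highest correlation to *Cxcl12*, *Adipoq* and *Apoe*, and *Lepr*. List genes given as values beside a result (such as *S100a8*, *Cytl1*, *Col1a1*, *Cd79a*, *Cebpe*, *Lpl*, *Pparg*, *Cxcr4* and *Pecam1*, and those at 0) were chosen after their values were seen.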

Additional observations from a re-analysis of the deposited data

How the results depend on the processing

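Over 19 alternatives (DESeq2, DESeq2 size factors, low-count filters, gene minimum, deep cells, top genes, plates left out and plates 1 and 2 alone) 8 of the 10 genes kept their direction and their call. *Foxc1* was at -0.43 without *Lepr*-lineage plate 2 and at 1.35 without *Lepr*-lineage plate 1 (log2 fold change 0.80 with both), and at 1.26 without cells of more than 5000 UMIs, and *Cebpa* lost its call without *Lepr*-lineage plate 1. The 853 genes called in all were 529 to 850 with a plate left out, the fewest without *Lepr*-lineage plate 2, which leaves 1 plate assumed to vary like the others. Plates 1 and 2 of each lineage alone, with fewer plates, called 451 genes, and 489 with the replicate number as a block. The correlation of same-numbered plates was 0.0011 and 0.075, so the numbers were not taken as a pairing. A *Lepr*-lineage cell held 3.95 genes after thinning. The median ratio of joint detection was 1.03 after thinning, 1.013 without the gene minimum and 1.012 to 1.014 on 1 plate alone. *Grem1*-lineage wells with any of the genes were 348 at 2 UMIs or more (572 at 1). Wells with at least 2 of the genes, in place of *Cxcl12*, differed by -1.53 percentage points in chondrocyte share, by 0.133 in haematopoietic share and by 342 in median UMIs, a depth to which the split itself is tied. Of the 5 genes most like *Cxcl12*, 3 were found on plate 1 alone. For *Adipoq* 2 were found after thinning, 1 on plate 1 and 2 on plate 2, and for *Apoe* 2 after thinning, 2 on plate 1 and 3 on plate 2. The cause of these changes was not tested. With 2 *Lepr*-lineage plates and 1222 UMIs in the median cell, differences in *Foxc1*, *Ebf3* and *Cebpa* are limited by counts.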
